A study of Mus musculus with 24 samples.

Results

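The glucocorticoid and mineralocorticoid receptors and a set of stress-related genes were followed across cell types of the mouse ventral hippocampus and between 2 inbred strains. The set was a list of 8 gene symbols out of 33902 in the table of single-nucleus RNA sequencing (snRNA-seq) counts. These were Nr3c1, Nr3c2, Fkbp5, Sgk1, Hsd11b1, Crhr1, Tsc22d3 and Zbtb16, and all 8 were found. The list was chosen with earlier results of these data known, so its shares of calls beside those of all genes are descriptions. The study sampled nuclei of C57BL/6J mice (B6, the strain of the mouse reference genome) and DBA/2J mice (D2), in order to relate differences in DNA sequence to regulation and transcription in each cell type. Each strain had 2 snRNA-seq libraries and 2 libraries of chromatin accessibility in single nuclei (snATAC-seq), while 16 methylation samples of the 24 samples were not analysed here. Both strains were represented by untreated adult males aged 10 to 16 weeks. The mice were put down under isoflurane, the tissue was frozen, and about 2 animals were pooled into a replicate. Nuclei for snRNA-seq were sorted to favour those carrying NeuN, a neuronal nuclear protein, whereas nuclei for snATAC-seq were not sorted on NeuN. The columns number the libraries of a strain 2 and 3, and a column could be tied to its strain but not to one of the labelled replicates. With 2 libraries a strain, the spread in a strain test within a cell type is that between 2 pools of animals. The p-values of those tests measure only that spread. Fits over all cell types together use the spread between columns left after the library is allowed for.

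Corticosterone, the main glucocorticoid of the mouse, enters cells and binds receptors that then act as transcription factors in the nucleus. The mineralocorticoid receptor binds it with high affinity and is known for its abundance in hippocampal neurons, while the glucocorticoid receptor has lower affinity and is engaged mainly when the hormone is high, as after stress or at the daily peak. The receptors bind DNA at glucocorticoid response elements, and genes such as Fkbp5, Sgk1, Tsc22d3 and Zbtb16 are widely used as readouts of this binding.

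Sequences matching such elements lay in open chromatin at Fkbp5, Sgk1, Zbtb16, Hsd11b1 and Nr3c2, and in no peak of Tsc22d3. Of these sequences 4 are printed because the accessibility of their peaks is described further on. The full element searched was AGAACA, 3 of any base, then TGTTCT. The relaxed form was G, any base, ACA, 3 of any base, TGT, any base, C, of which the full form is one case, and both forms read alike on the 2 strands of DNA. Capitals mark the element, with 20 bases of the GRCm38 (mm10) reference on either side, written 5′ to 3′ on the strand of the gene.
Fkbp5 intron, full element, chr17:28420301-28420355, minus strand: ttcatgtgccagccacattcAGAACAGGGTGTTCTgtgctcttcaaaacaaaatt
Sgk1 downstream of the gene, relaxed element, chr10:22000331-22000383, plus strand: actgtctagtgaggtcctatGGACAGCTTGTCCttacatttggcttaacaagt
Zbtb16 intron, relaxed element, chr9:48723684-48723736, minus strand: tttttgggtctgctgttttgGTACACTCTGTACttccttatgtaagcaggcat
Hsd11b1 intron, relaxed element, chr1:193227633-193227685, minus strand: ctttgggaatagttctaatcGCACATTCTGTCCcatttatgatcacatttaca
The full element occurred in 103 of 300776 peaks (0.0342%) and the relaxed form in 5365 (1.78%). Of the 231 peaks at the 8 genes, 1 held the full element and 16 the relaxed form. A match to these letters is a description of the sequence and no evidence that a receptor binds there.

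The counts had been summed by the authors over the nuclei of each library in 17 named cell types, 12 neuronal and 5 non-neuronal. Libraries held 6312 to 8707 nuclei and 43048686 to 56452272 counts, and a single column held 139713 (CR-CR, a small type) to 11352265 counts (Exc-DG). Of 14 lists of cell class markers, 10 were higher in every column of their own class than in any other. The other 4 (excitatory, dentate, Lamp5 and Cajal-Retzius markers) overlapped with other classes, and CR-CR took part in each of those overlaps. Mitochondrial genes gave 0.143% to 1.90% of a column's counts. Levels are CPM (counts scaled to a fixed, TMM-normalized column total), and since columns are sums, fewer nuclei expressing a gene and less RNA in each nucleus cannot be told apart.

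Between strains, 40 of the 113 tests of a gene in a cell type passed at an adjusted p under 0.05 (edgeR's quasi-likelihood test with Benjamini-Hochberg adjustment over all genes of the cell type), and 37 of the 40 were lower in D2. Over all genes 22.1% of tests passed, 9.25% lower and 12.9% higher in D2. In the 5 non-neuronal types 18 of 31 tests of the 8 genes were lower in D2 and 2 were higher, where the background was 17.3% called, 8.08% lower and 9.23% higher. The 12 neuronal types gave 19 lower and 1 higher of 82 tests, beside 23.8% called, 9.64% lower and 14.1% higher over all genes. Within non-neuronal types the genes called were 5 of 7 in NN-Astro (astrocytes, background 26.2%), 6 of 7 in NN-ODC (oligodendrocytes, 19.0%) and 3 of 6 in NN-MGC (microglia, 10.4%). In NN-OPC (oligodendrocyte precursors) 3 of 5 were called against 16.2%, and in NN-VLMC (vascular and leptomeningeal cells) 3 of 6 against 7.87%. With all cell types of a library summed, Fkbp5, Sgk1, Tsc22d3 and Zbtb16 were called and each was lower in D2, where 46.7% of all genes were called and 16.0% were lower. The median of the 113 differences was -0.31 on the log2 scale. With DESeq2 in place of edgeR 21 of the 40 stayed called. The mix of nuclei in these sums differed between libraries, with NN-ODC at 9.69% and 12.4% of nuclei in B6 and 6.68% and 8.08% in D2, and NN-Astro at 12.9% and 12.4% and at 14.9% and 17.1%. The part of this mix in the 4 summed differences was not tested.

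**Figure D1:**
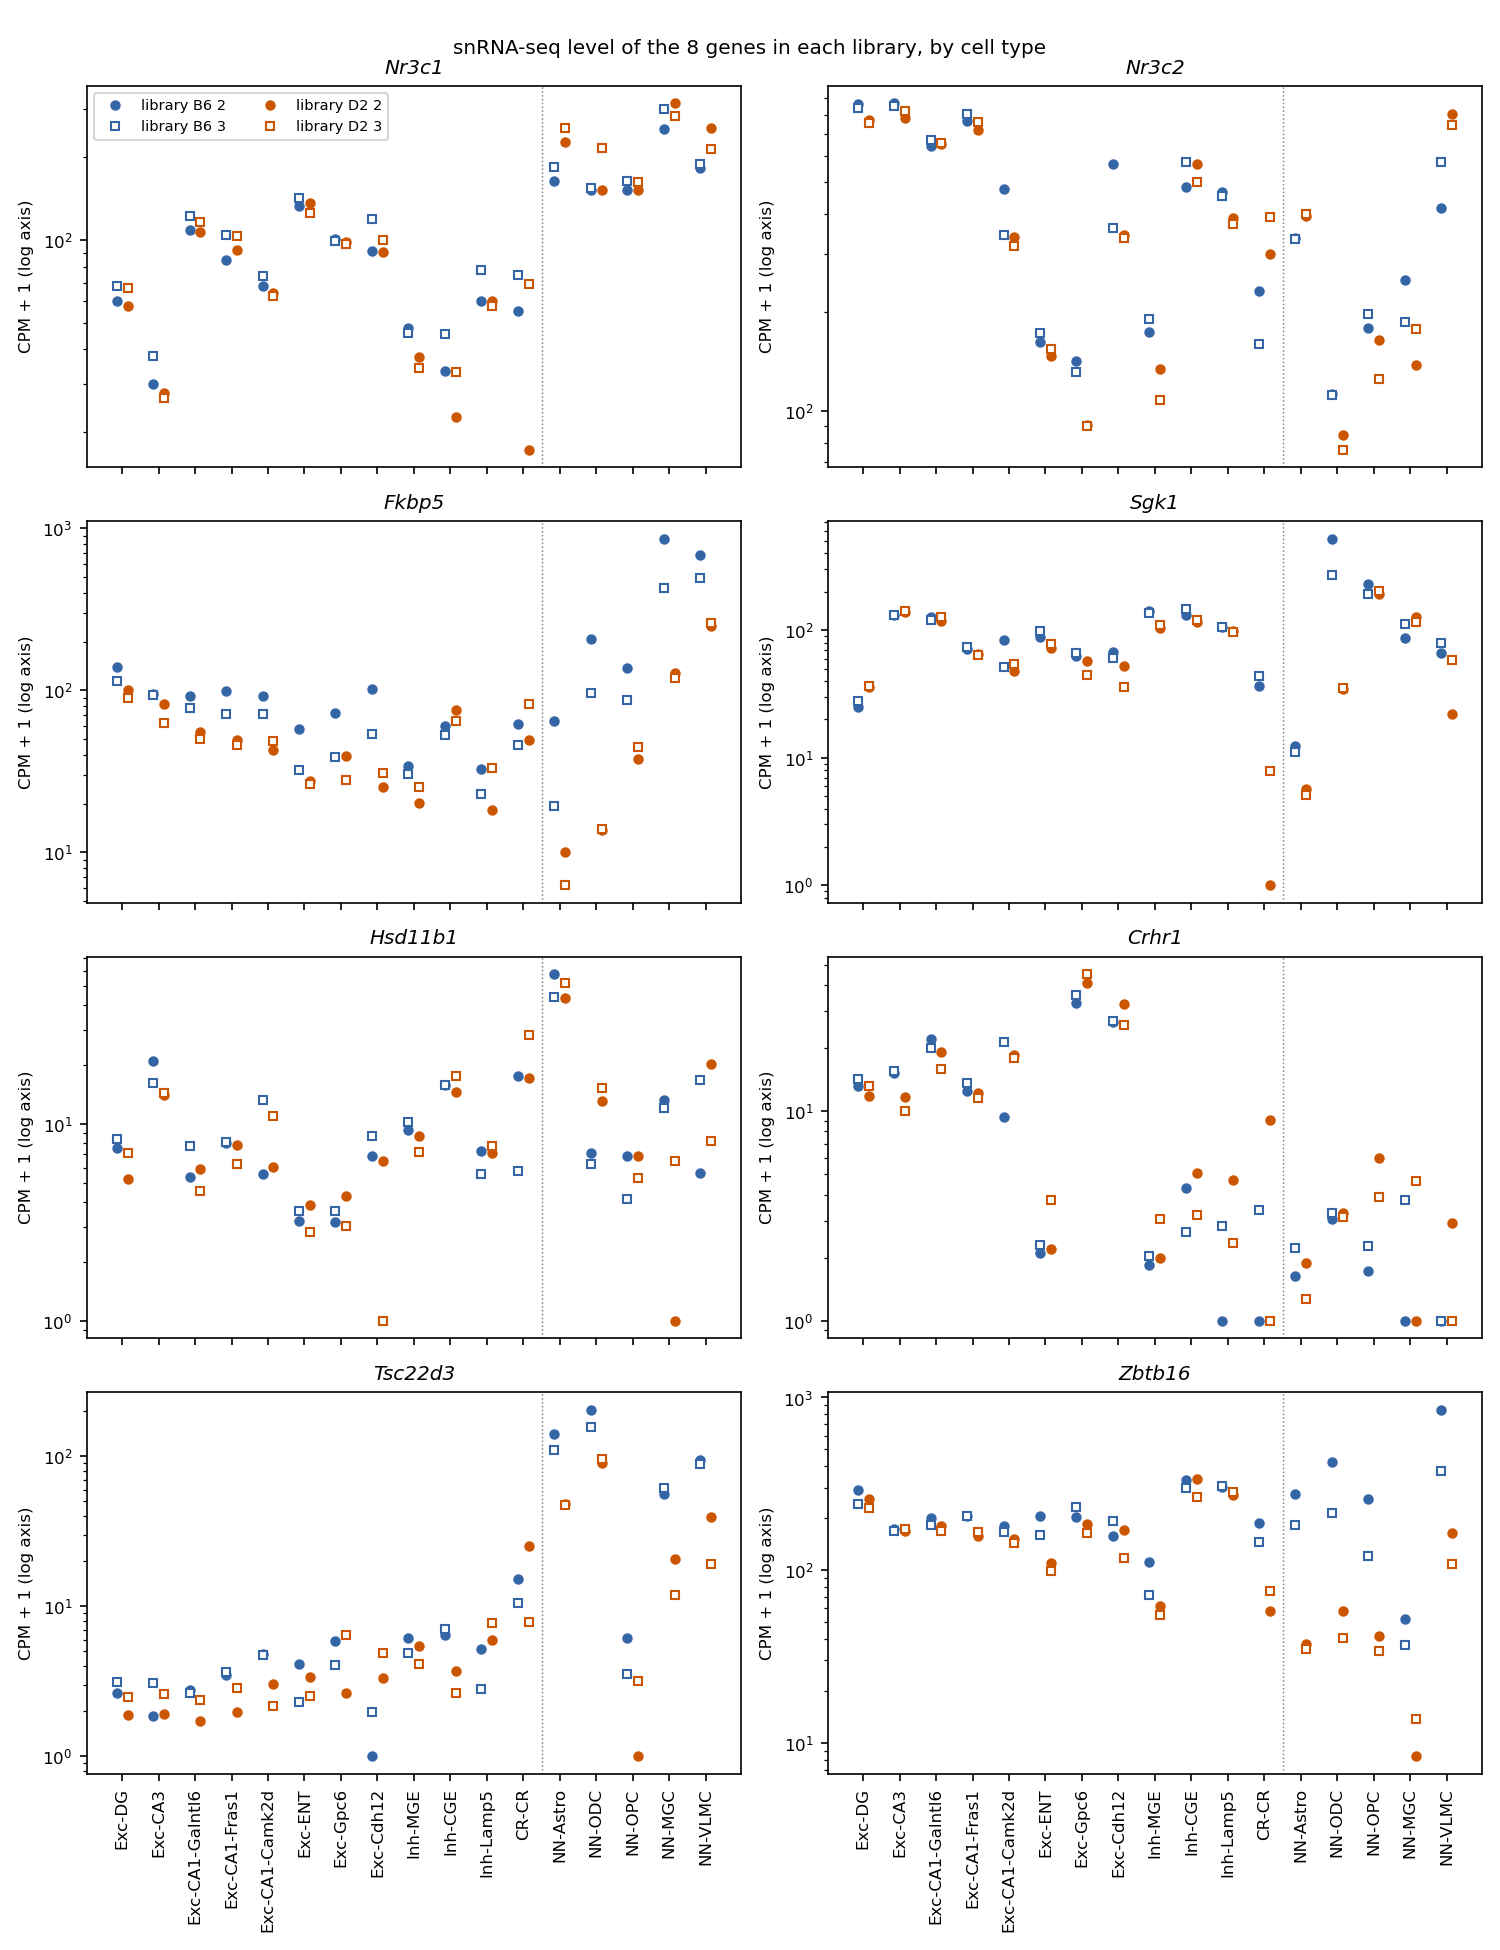
Level of each gene (CPM + 1, log axis) in the 17 cell types, with 1 point per snRNA-seq library (blue, B6; orange, D2; filled circles, library 2; open squares, library 3) and non-neuronal types right of the dotted line. Nr3c1 was highest in non-neuronal types, Nr3c2 in CA3, dentate and CA1 neurons, and the points of the strains lay far apart for Fkbp5, Sgk1, Tsc22d3 and Zbtb16 in oligodendrocytes.

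Cell classes were compared in 1 fit with each cell type weighted equally and the library as a block. Of the 8 genes, 7 differed between non-neuronal and neuronal types (69.4% of all genes did), 7 between inhibitory and excitatory neurons (53.1%) and 5 between dentate granule (Exc-DG) and CA1 neurons (47.5%). CA3 and CA1 neurons differed in 4 (30.0%) and oligodendrocytes and their precursors in 5 (46.1%). These shares are high for any gene, so the direction and size of each difference carry the description. The strain difference itself varied between cell types for 6 of the 8 genes in a test of the interaction, which passed for 15.9% of all genes. A narrower contrast, the strain difference in non-neuronal minus that in neuronal types, passed for Fkbp5, Zbtb16, Tsc22d3 and Nr3c1, against 5.48% of all genes.

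**Figure D2:**
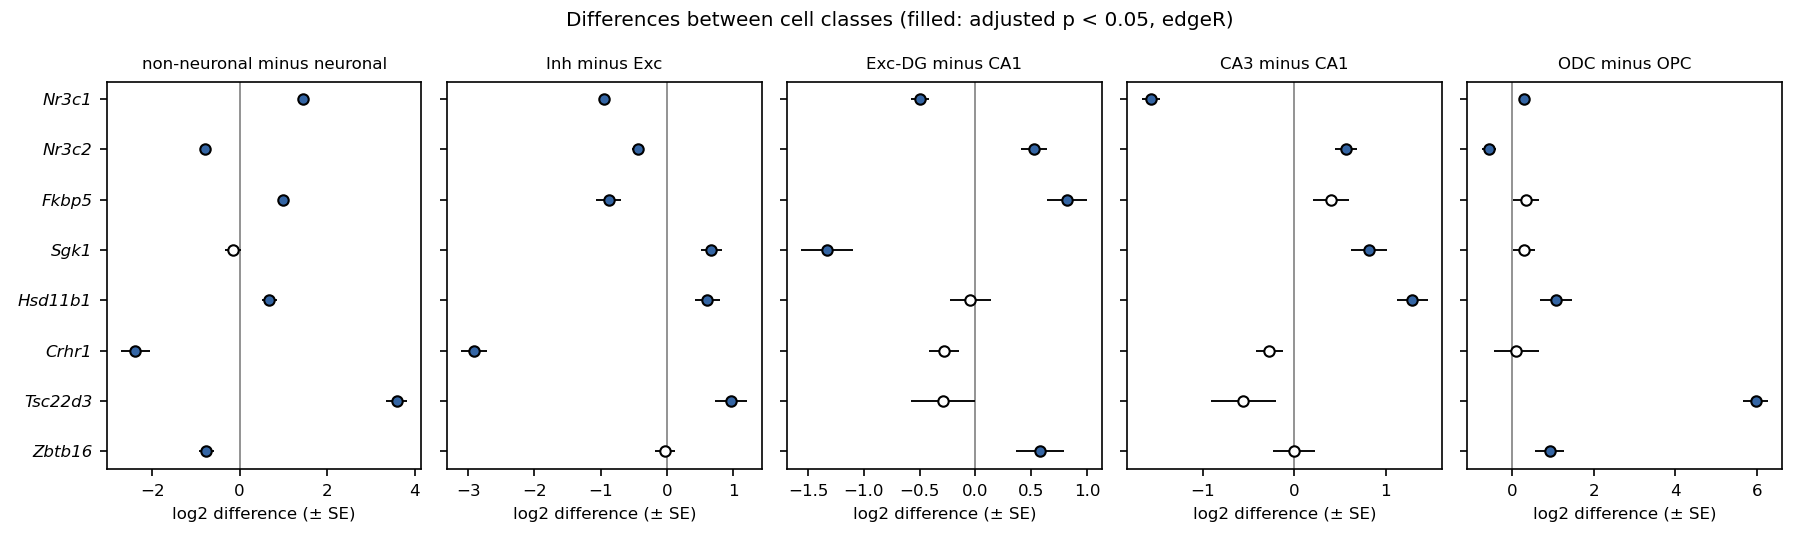
Differences between cell classes for the 8 genes, in log2 with standard errors (edgeR, both strains together), filled where the adjusted p was under 0.05. Nr3c1 and Tsc22d3 lay to the non-neuronal side and Nr3c2 and Crhr1 to the neuronal side, and Crhr1 was lower in inhibitory than in excitatory neurons.

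Nr3c1, which encodes the glucocorticoid receptor (chromosome 18, 39410545 to 39519421, minus strand), was most abundant in non-neuronal types. In microglia its level was 252 and 299 CPM in the B6 libraries and 314 and 283 CPM in the D2 libraries. The means over the 4 libraries were 287 CPM in NN-MGC, 209 in NN-VLMC and 207 in NN-Astro, and the first 5 places in the order all belonged to non-neuronal types. Neighbours in that order overlapped in 13 of 16 cases, and a gap separated NN-OPC (157 CPM) from the leading neuronal type, Exc-ENT (133 CPM). Non-neuronal types exceeded neurons by 1.46 on the log2 scale (SE 0.05, adjusted p = 6.34e-36). Within neurons it was lower in CA3 than in CA1 by a log2 of -1.56 (SE 0.10), in dentate than in CA1 neurons by -0.50 (SE 0.08) and in inhibitory than in excitatory neurons by -0.96 (SE 0.07). CA3 neurons, at 29.5 CPM, held the last place. As raw counts per nucleus, which do not correct for the larger RNA content of neurons, the highest type was Exc-ENT instead. Mxd1 (Pearson r = 0.86), Sgk3 (0.85) and AW146154 (0.85) had the most similar pattern over the 17 cell types.

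Between strains Nr3c1 was called in astrocytes alone among the 17 cell types. The astrocyte libraries stood at 164 and 184 CPM in B6 and 227 and 254 CPM in D2. Both D2 libraries were above both B6 libraries, with a log2 difference of 0.47 (SE 0.10, adjusted p = 0.000456). Without D2 library 3 it was 0.39 and missed the threshold. In neurons none of the 12 differences passed in edgeR or in DESeq2, while 3 had an unadjusted p under 0.05. The strain difference in non-neuronal types was higher than that in neurons by 0.46 (SE 0.08, adjusted p = 4.48e-05).

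Nr3c2, which encodes the mineralocorticoid receptor (chromosome 8, 76899442 to 77245012, plus strand), had its highest levels in hippocampal principal neurons. CA3 neurons held 867 and 852 CPM in B6 and 783 and 824 CPM in D2, and dentate neurons 860, 839, 772 and 754 CPM in the same order. The means were 831 CPM in Exc-CA3, 806 in Exc-DG and 762 in Exc-CA1-Fras1, 3 types whose ranges overlapped in sequence and lay above Exc-CA1-Galntl6 (654 CPM). Oligodendrocytes came last at 95.0 CPM. NN-VLMC, at 634 CPM, was the one non-neuronal type among the leading 5. The receptor genes thus ran in opposite directions in several contrasts. Nr3c2 was lower in non-neuronal than in neuronal types by a log2 of -0.79 (SE 0.07, adjusted p = 3.52e-17), or -1.26 with types summed by class, and was higher than in CA1 both in CA3 (0.57, SE 0.12) and in the dentate gyrus (0.53, SE 0.12), where Nr3c1 was lower. In another contrast they ran the same way. Both receptor genes were lower in inhibitory than in excitatory neurons, Nr3c2 by -0.44 (SE 0.08, adjusted p = 1.16e-06), or -1.09 with types summed by class. Across the 17 cell types Pearson's r between the 2 receptors was -0.32, a description over points that share their 4 libraries. The genes with the most similar pattern to Nr3c2 were Gm11201 (r = 0.82), Ksr1 (0.81) and Mpg (0.77).

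Nr3c2 was called between strains in 4 cell types and was lower in D2 in each. Inh-MGE neurons, a class of interneurons, had 173 and 190 CPM in B6 and 133 and 107 CPM in D2 (log2 -0.59, SE 0.12, adjusted p = 0.00159). Exc-Gpc6 neurons had 141 and 130 CPM in B6 and 89.2 and 88.6 CPM in D2 (-0.61, SE 0.12, adjusted p = 0.000247). The strains did not overlap in either type. Smaller differences were called in NN-ODC (-0.49, SE 0.15) and NN-OPC (-0.39, SE 0.13), and both of these missed the threshold with DESeq2, without library 3 of either strain. The NN-OPC difference was -0.19 without D2 library 3 and -0.60, still called, without D2 library 2. The Inh-MGE difference was -0.44 and not called without D2 library 3. In NN-VLMC, CR-CR and NN-Astro the D2 libraries were the higher ones, and none of these differences passed. They were 0.63 (SE 0.22), 0.83 (SE 0.26) and 0.24 (SE 0.09, adjusted p = 0.0556). The interaction between strain and cell type passed for Nr3c2 (adjusted p = 6.15e-06). Averaged over types, however, its non-neuronal and neuronal strain differences were close, differing by 0.06 (SE 0.08, adjusted p = 0.966).

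**Figure D3:**
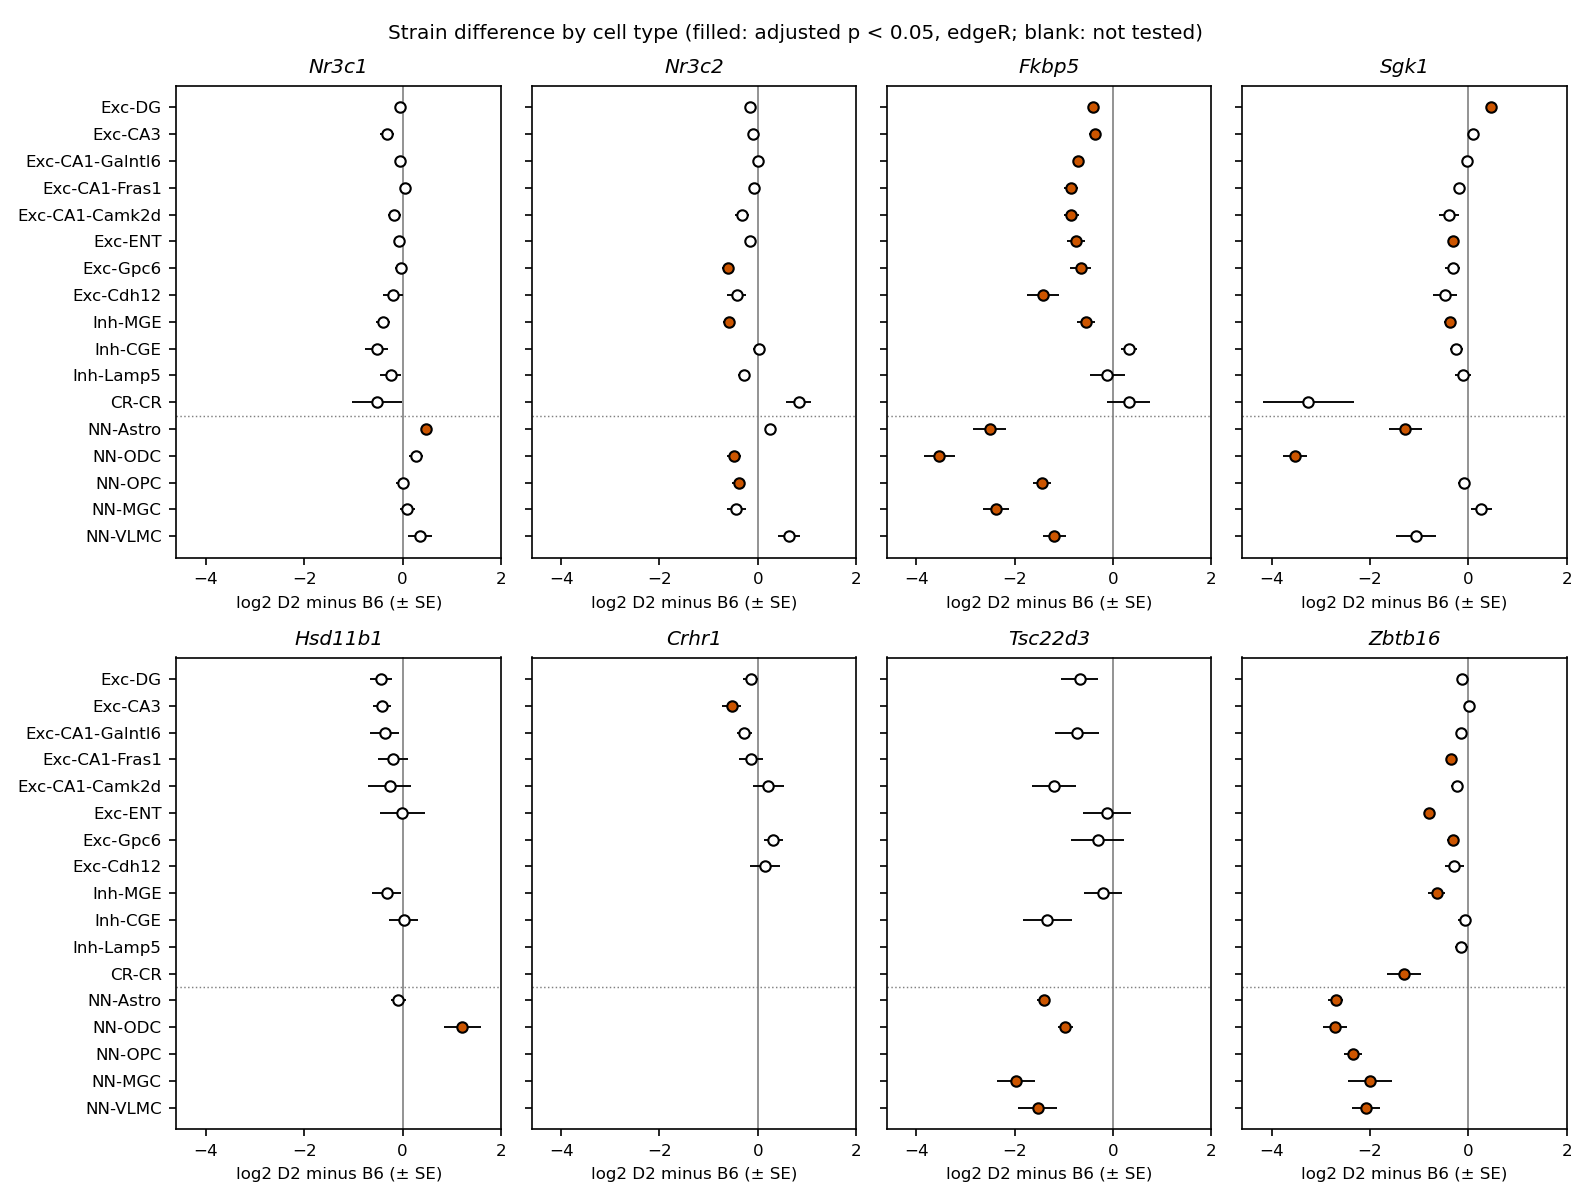
Strain difference (log2 D2 minus B6, with standard error) of each gene in the 17 cell types, filled where the adjusted p was under 0.05 (edgeR) and blank where counts were too low to test. Fkbp5 and Zbtb16 lay left of 0 in all 5 non-neuronal types, whereas Sgk1 did so in NN-ODC and lay near 0 in NN-OPC, and its low point in CR-CR (large error bar) was not called.

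Fkbp5 encodes FKBP51, a co-chaperone of the receptors that lowers their hormone binding and is itself induced by them (chromosome 17, 28399094 to 28517527, minus strand). It was the most widely different of the 8 genes, lower in D2 in 14 of 17 cell types, among them all 5 non-neuronal types. Oligodendrocytes had 207 and 95.1 CPM in the B6 libraries and 12.8 and 12.9 CPM in the D2 libraries. Microglia had 861 and 429 CPM in B6 and 128 and 118 CPM in D2. Astrocytes had 63.5 and 18.4 CPM in B6 and 9.07 and 5.26 CPM in D2. In all 3 types both B6 libraries were above both D2 libraries, and the B6 libraries also differed widely from each other, whereas the D2 libraries of oligodendrocytes and microglia lay close together. The log2 differences were -3.53 in NN-ODC (SE 0.32, adjusted p = 4.62e-09), -2.37 in NN-MGC (SE 0.26, adjusted p = 8.87e-06) and -2.51 in NN-Astro (SE 0.34, adjusted p = 1.72e-07). They were -1.44 in NN-OPC (SE 0.18) and -1.19 in NN-VLMC (SE 0.23).

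The neuronal differences of Fkbp5 were mostly smaller, with a median of -0.60 beside -2.37 in non-neuronal types. They ran from -0.37 in Exc-CA3 to -1.42 in Exc-Cdh12 among the 9 called types, the latter larger than that in NN-VLMC (-1.19). Dentate neurons had 138 and 113 CPM in B6 and 99.8 and 88.6 CPM in D2 (log2 -0.41, SE 0.10, adjusted p = 0.00476), without overlap. In Inh-CGE, Inh-Lamp5 and CR-CR no difference passed, and in Inh-CGE the D2 libraries, at 74.7 and 63.6 CPM, were above the B6 libraries, at 59.1 and 52.0 CPM. The strain difference was more negative in non-neuronal types than in neurons by 1.67 log2 units (difference -1.67, SE 0.15, adjusted p = 3.47e-14). B6 library 2 was above B6 library 3 in all 17 cell types. Without B6 library 2 the differences were -2.89 in NN-ODC, -1.80 in NN-MGC, -1.36 in NN-Astro and -0.26 in Exc-DG, each still called, and those in Inh-MGE, Exc-Gpc6, Exc-ENT and Exc-CA3 were not called (-0.47, -0.16, -0.28 and -0.35). With DESeq2 4 of the non-neuronal and 4 of the neuronal differences passed, and the astrocyte one was among those that did not. Without D2 library 3 the calls in Exc-CA1-Camk2d, Exc-Gpc6 and Exc-CA3 were lost (-0.94, -0.47 and -0.20), and without D2 library 2 those in Exc-CA1-Camk2d and Inh-MGE (-0.75 and -0.36). The Exc-Gpc6 difference was -1.07 without B6 library 3 and the Exc-CA3 one -0.59 without D2 library 2, both called.

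By level Fkbp5 was highest in NN-VLMC (421 CPM) and NN-MGC (384 CPM), then in Exc-DG (110 CPM), and lowest in NN-Astro (24.1 CPM). All 16 pairs of neighbours in this order overlapped over the 4 libraries. Non-neuronal types exceeded neuronal types by 1.00 (SE 0.13, adjusted p = 7.91e-10) where each type counted equally, by 0.56 without B6 library 2, and by -0.02, with the sign turned, where the types of a class were summed first. Dentate neurons exceeded CA1 neurons by 0.82 (SE 0.18), and inhibitory neurons were lower than excitatory ones (-0.88, SE 0.19). Gm22146, a gene inside Fkbp5 whose reads may not be separable from it, had the most similar pattern (r = 0.95), followed by Srpr (0.92) and Gm3716 (0.86).

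Sgk1 encodes a serine/threonine kinase that acts on ion channels and transporters and is induced by both receptors (chromosome 10, 21882184 to 21999903, plus strand). Its best supported strain difference was in oligodendrocytes, where the B6 libraries had 520 and 270 CPM and the D2 libraries 33.8 and 34.3 CPM. The precursors of these cells had 230 and 191 CPM in B6 and 193 and 204 CPM in D2. The strains were thus far apart in oligodendrocytes and overlapped in precursors. The log2 difference was -3.53 in NN-ODC (SE 0.24, adjusted p = 1.85e-11) and -0.08 in NN-OPC (SE 0.12, adjusted p = 0.756). Without B6 library 2 the oligodendrocyte difference was -2.99 and remained called. In astrocytes, where the gene was at its lowest, the libraries had 11.4 and 10.1 CPM in B6 and 4.68 and 4.15 CPM in D2, from 15 to 36 counts each (-1.28, SE 0.33, adjusted p = 0.00261), and this call was lost with DESeq2. In the small CR-CR columns 15 and 18 counts in B6 stood against 0 and 1 in D2, and that difference did not pass (adjusted p = 0.0597).

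Dentate neurons showed the opposite order for Sgk1. Their libraries had 24.2 and 26.9 CPM in B6 and 35.2 and 35.5 CPM in D2. Both D2 libraries were the higher ones, by a log2 of 0.47 (SE 0.11, adjusted p = 0.00316), and the call was lost with DESeq2. Inh-MGE (-0.38, SE 0.11) and Exc-ENT (-0.31, SE 0.11) were lower in D2, and each lost its call with DESeq2 and without D2 library 2, Inh-MGE also without D2 library 3 and Exc-ENT without B6 library 3. The interaction of strain and cell type was among the strongest of the 8 genes (adjusted p = 3.39e-19), whereas the non-neuronal minus neuronal contrast did not pass (-0.71, SE 0.29, adjusted p = 0.162). By mean level over the 4 libraries the order opened with NN-ODC (214 CPM) and NN-OPC (204 CPM), followed by Exc-CA3 (135 CPM). In B6 by itself NN-ODC was first, with a mean of 395 CPM. In D2, at 34.0 CPM, it was above NN-Astro and CR-CR only, and NN-OPC led with 198 CPM. NN-OPC came first without B6 library 2 or without B6 library 3, and as raw counts per nucleus the highest type was Exc-CA3. Sgk1 was lower in dentate than in CA1 neurons (-1.33, SE 0.23) and higher in CA3 than in CA1 neurons (0.81, SE 0.20) and in inhibitory than in excitatory neurons (0.68, SE 0.15). Fbxw17 (r = 0.89), Gyg (0.75) and Gm8739 (0.75) had the most similar pattern.

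Hsd11b1 encodes 11-beta-hydroxysteroid dehydrogenase type 1, an enzyme that regenerates active glucocorticoid inside cells (chromosome 1, 193221634 to 193264075, minus strand). As CPM astrocytes had the most, with 56.6 and 42.9 CPM in B6 and 42.4 and 51.2 CPM in D2, and the strains overlapped there (log2 -0.08, SE 0.15, adjusted p = 0.742). The astrocyte mean of 48.3 CPM was separated from the next types, CR-CR (16.2 CPM) and Exc-CA3 (15.3 CPM), which overlapped. As raw counts per nucleus Exc-CA3 was the highest type instead, at 0.161 beside 0.149 in NN-Astro. CA3 neurons exceeded CA1 neurons by 1.28 (SE 0.17, adjusted p = 2.88e-09), and oligodendrocytes exceeded their precursors by 1.08 (SE 0.40, adjusted p = 0.0208), a call lost without either D2 library. Non-neuronal types were higher than neurons by 0.67 (SE 0.17), or by 1.63 with types summed by class, and inhibitory neurons higher than excitatory ones by 0.61 (SE 0.18). Counts were low elsewhere and 10 cell types could be tested between strains. The 1 difference called was in oligodendrocytes, with 6.13 and 5.26 CPM in B6 and 12 and 14.3 CPM in D2. Those levels rested on 12, 14, 16 and 20 counts, and the difference of 1.21 (SE 0.38, adjusted p = 0.0244) was lost with DESeq2 and with any 1 library left out. The most similar patterns were those of 4932438H23Rik (r = 0.84), Frem2 (0.83) and Slc35a2 (0.80).

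Crhr1 encodes the receptor of corticotropin-releasing hormone, the peptide that starts the hormonal stress response and also acts as a transmitter in the brain (chromosome 11, 104132855 to 104175523, plus strand). It was an excitatory gene here. Exc-Gpc6 neurons had 31.8 and 34.8 CPM in B6 and 40.1 and 44.0 CPM in D2, and Exc-Cdh12 neurons 25.6, 26.0, 31.3 and 24.8 CPM in the same order. The means of 37.7 and 26.9 CPM were each separated from the next type in the order, Exc-CA1-Galntl6 (18.3 CPM). Other dentate, CA3 and CA1 types held 11.45 to 15.8 CPM, while Exc-ENT, all inhibitory types and all non-neuronal types held 2.80 CPM or less. The difference between inhibitory and excitatory neurons was -2.91 (SE 0.19, adjusted p = 2.88e-21), and that between non-neuronal and neuronal types was -2.38 (SE 0.33, adjusted p = 2.22e-09), or -3.25 with types summed by class. Between strains 7 neuronal types could be tested and 1 difference was called, in CA3 neurons, with 14.2 and 14.6 CPM in B6 and 10.7 and 8.97 CPM in D2. Its size was -0.53 (SE 0.20, adjusted p = 0.0488), and the call was lost with DESeq2 and with any 1 library left out. In Exc-Gpc6 the D2 libraries were above the B6 libraries, and that difference did not pass (0.32, SE 0.19, adjusted p = 0.272). Srd5a1 (r = 0.91), Nell2 (0.90) and Gm13402 (0.89) had the most similar pattern.

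Tsc22d3 encodes GILZ, the glucocorticoid-induced leucine zipper, which mediates anti-inflammatory actions of the hormone (chromosome X, 140539528 to 140600659, minus strand). It was expressed in 4 non-neuronal types and hardly elsewhere. Oligodendrocytes had 203 and 156 CPM in B6 and 88.6 and 94.3 CPM in D2. Astrocytes had 139 and 109 CPM in B6 and 46.8 and 46.2 CPM in D2. Microglia had 55.0 and 60.9 CPM in B6 and 19.6 and 10.9 CPM in D2. B6 was above D2 without overlap in each. The log2 differences were -0.97 in NN-ODC (SE 0.15, adjusted p = 2.47e-05), -1.41 in NN-Astro (SE 0.13, adjusted p = 2.22e-11), -1.97 in NN-MGC (SE 0.39, adjusted p = 0.00222) and -1.54 in NN-VLMC (SE 0.39, adjusted p = 0.00676). The microglial and NN-VLMC calls were lost with DESeq2, and the latter was also lost without D2 library 3 (-1.20). The microglial counts were 27, 44, 8 and 6.

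In neurons Tsc22d3 stayed at 13.7 CPM or less by mean. Among the 7 neuronal types that could be tested no difference passed in edgeR or in DESeq2, and 2 had an unadjusted p under 0.05. Non-neuronal types exceeded neurons by 3.59 (SE 0.24, adjusted p = 2.28e-21), or by 4.88 with types summed by class. Within the oligodendrocyte lineage the gene separated mature cells (136 CPM) from precursors (2.46 CPM) by 5.96 log2 units (SE 0.30, adjusted p = 1.53e-27). The strain difference was more negative in non-neuronal than in neuronal types (difference -1.33, SE 0.29, adjusted p = 0.00126), and by -2.02 without D2 library 3. The neuronal side of this contrast rested on few counts, such as 0, 1, 3 and 3 in Exc-Cdh12. The differences in the 7 neuronal types tested singly were all negative, with a median of -0.68 and with -1.34 in Inh-CGE. The part of low neuronal counts in the contrast was not tested. Ccdc152 (r = 0.95), Gm16193 (0.95) and Selenop (0.94) were the genes with the most similar pattern.

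Zbtb16 encodes PLZF, a zinc finger transcription factor induced by glucocorticoids (chromosome 9, 48654297 to 48836222, minus strand). It was lower in D2 in all 5 non-neuronal types. Astrocytes had 276 and 182 CPM in B6 and 36.6 and 34.0 CPM in D2. Oligodendrocytes had 420 and 213 CPM in B6 and 57.1 and 39.3 CPM in D2. NN-VLMC had 848 and 372 CPM in B6 and 163 and 108 CPM in D2. No D2 library reached a B6 library in these types, although the B6 libraries again differed among themselves. The differences were -2.70 in NN-Astro (SE 0.15, adjusted p = 7.55e-18), -2.71 in NN-ODC (SE 0.24, adjusted p = 2.62e-09), -2.34 in NN-OPC (SE 0.18, adjusted p = 1.45e-24), -2.09 in NN-VLMC (SE 0.29, adjusted p = 5e-07) and -2.0 in NN-MGC (SE 0.45, adjusted p = 0.00709). Without B6 library 2 they ran from -2.35 in NN-Astro to -1.41 in NN-VLMC and were still called, and the microglial call was lost with DESeq2.

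Of the 12 neuronal types 5 were lower in D2 for Zbtb16. CA3 neurons had 172 and 167 CPM in B6 and 168 and 172 CPM in D2 (adjusted p = 0.979, with a log2 difference of 0.00 and an SE of 0.08). Exc-ENT was the neuronal type with a difference that held under every alternative, at 204 and 159 CPM in B6 and 110 and 97.8 CPM in D2 (-0.80, SE 0.11, adjusted p = 9.13e-08). Calls in CR-CR (-1.31), Inh-MGE (-0.64), Exc-CA1-Fras1 (-0.35) and Exc-Gpc6 (-0.32) each failed without D2 library 2 or without D2 library 3, and those in CR-CR and Exc-Gpc6 also failed with DESeq2 and with the replicate number as a block. Without B6 library 2 the differences in Inh-MGE (-0.30) and CR-CR (-1.15) were not called, and Exc-Gpc6 was not called without B6 library 3 (-0.22). The non-neuronal strain difference was below the neuronal one by 1.96 log2 units (difference -1.96, SE 0.17, adjusted p = 1.64e-14). By mean level NN-VLMC led (373 CPM), followed by Inh-CGE (307 CPM) and Inh-Lamp5 (291 CPM), and Inh-CGE led without B6 library 2. As raw counts per nucleus the highest type was Inh-CGE instead, at 2.42 beside 0.934 in NN-VLMC. With both strains together non-neuronal types were lower than neurons by a log2 of -0.77 (SE 0.17), which was -1.04 and not called with types summed by class and -1.25 without B6 library 2. In B6 the non-neuronal means ran from 43.4 CPM (NN-MGC) to 610 CPM (NN-VLMC) beside 90.6 to 315 CPM in neuronal types, and in D2 from 10.1 to 136 CPM beside 57.5 to 299.6 CPM. The ranges of the 2 classes overlapped in each strain, and the contrast was not tested within a strain. The dentate gyrus was higher than CA1 (0.58, SE 0.21) and oligodendrocytes higher than precursors (0.92, SE 0.35), calls that were lost without B6 library 3 and without D2 library 2. P4htm (r = 0.85), 1700007J10Rik (0.81) and Hdac7 (0.80) had the most similar pattern, among 15247 candidates for each gene, and few of the genes so named for all 8 were named again by a rank correlation (7 of 24) or from B6 alone (4 of 24) or D2 alone (7 of 24).

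Values that moved with the strain in the non-neuronal columns are as follows. Summed markers of oligodendrocytes in the astrocyte columns were 141 and 146 CPM in B6 and 64.5 and 72.0 CPM in D2, where the astrocytes' own markers were at 2627 to 2922 CPM in B6 and 2892 to 3114 CPM in D2. Summed astrocyte markers in the microglial columns were 331 to 383 CPM in B6 and 224 to 260 CPM in D2, beside 3420 CPM or more of microglial markers. Of tested markers of other classes, 9 were lower and 2 higher in D2 of 29 in NN-Astro, 2 and 1 of 24 in NN-ODC, 5 and 0 of 15 in NN-MGC, 3 and 2 of 21 in NN-OPC and 2 and 0 of 14 in NN-VLMC. Markers at 0 in all 4 libraries were 1 of 4 Cajal-Retzius markers in NN-ODC, 1 of 4 of these and 1 of 3 CA3 markers in NN-MGC and 3 of 4 Cajal-Retzius markers in NN-VLMC. Counts per nucleus ran from 1780 to 4141 in B6 and from 2153 to 3937 in D2, and mitochondrial shares from 0.615% to 1.46% and from 0.711% to 1.90%. The part of any of these in the differences of the 8 genes was not tested.

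Other genes known to be induced by glucocorticoids were counted on a list of 18. In non-neuronal types 16 of 62 tests were lower in D2 (25.8%) and 3 were higher (4.84%), with a median of -0.40 beside 0.02 over all genes. The background in these types was 8.08% lower and 9.23% higher. In neurons 12 of 123 were lower (9.76%) and 4 were higher (3.25%), beside 9.64% and 14.1% over all genes. With DESeq2 this list gave 11 lower and 0 higher of 77 tests in non-neuronal types. In neurons DESeq2 called 0 lower and 0 higher of 173. Per1, a clock gene with a response element of its own, was lower in NN-ODC, with 47.5 and 40.2 CPM in B6 and 11.3 and 11.4 CPM in D2 (log2 -1.93, SE 0.26, adjusted p = 3.03e-06). Glul, the glutamine synthetase of astrocytes, had 608 and 544 CPM in NN-Astro of B6 and 324 and 332 CPM in that of D2 (-0.81, SE 0.09, adjusted p = 4.81e-09). The strains did not overlap for either. Ddit4, an inhibitor of mTOR signalling, was lower in D2 in NN-Astro (-1.22), NN-ODC (-1.46) and NN-MGC (-3.49). Klf9, a transcription factor induced by the hormone, was lower in NN-Astro (-0.57) and NN-ODC (-1.57). These 4 genes, named as those of the list called in the most cell types, were lower in 5 (Per1), 7 (Glul), 3 (Ddit4) and 4 (Klf9) and higher in none. The calls higher in D2, 3 in non-neuronal types and 4 in neurons, all fell on other genes of the list.

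**Figure D4:**
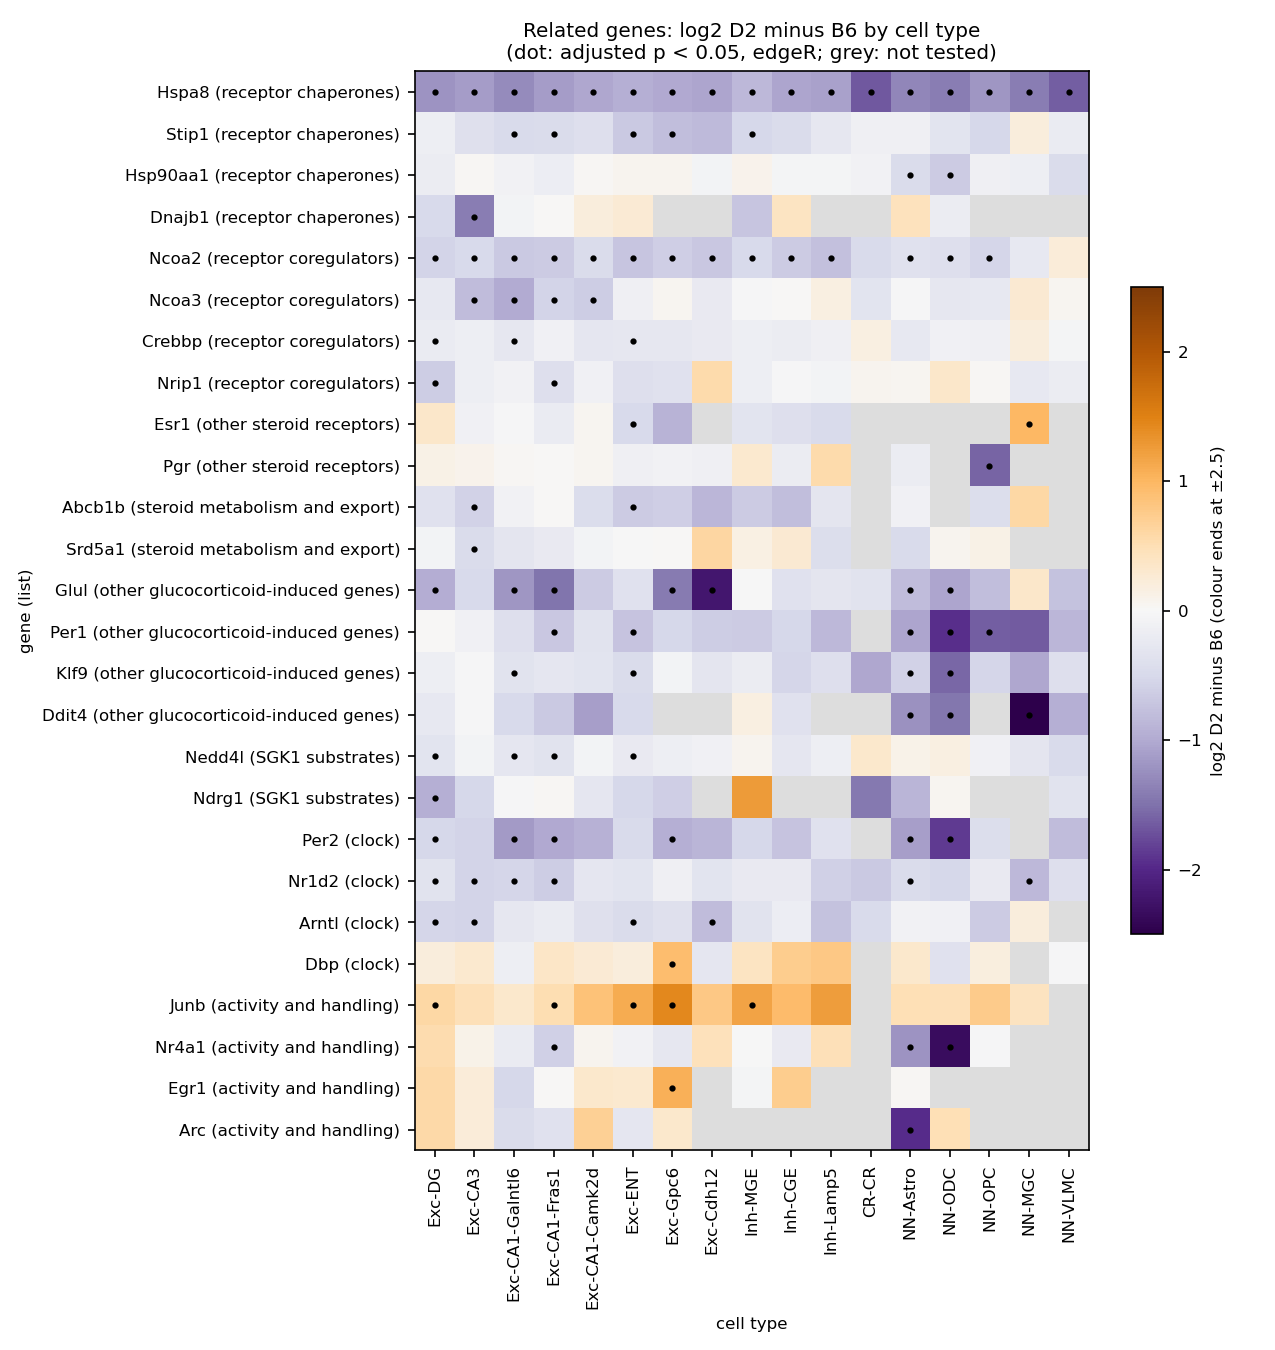
Strain difference (log2 D2 minus B6, colour) in the 17 cell types for up to 4 genes of each related list, with a dot where the adjusted p was under 0.05 and grey where a gene was not tested. Hspa8 was lower in D2 in every cell type, Per1, Klf9 and Ddit4 mainly in non-neuronal types, and Junb was higher in D2 in 5 neuronal types.

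Chaperones that fold and hold the receptors gave 26 tests lower in D2 of 158 over the 17 cell types (16.5%, background 9.25% lower and 12.9% higher) and none higher in edgeR or DESeq2, with 3 higher at an unadjusted p under 0.05. Hspa8, a constitutive Hsp70 protein, accounted for 17 of the 26, being lower in every cell type. In NN-ODC its libraries had 128 and 149 CPM in B6 and 45.8 and 59.3 CPM in D2 (log2 -1.40, SE 0.17, adjusted p = 3.73e-07). Stip1, which links Hsp70 and Hsp90, was lower in 5 neuronal types, Hsp90aa1 in NN-Astro (-0.46) and NN-ODC (-0.65), and Dnajb1 in CA3 neurons. Receptor coregulators gave 25 lower of 151 (16.6%, background 9.25%) and none higher in edgeR or DESeq2, with 2 higher at an unadjusted p under 0.05. Ncoa2, a coactivator, gave 14 of the 25 and was lower by -0.59 (SE 0.07, adjusted p = 3.62e-06) with all types summed. Ncoa3 was lower in 4 types, Crebbp in 3 and Nrip1 in 2.

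Of other receptors for steroid hormones, Esr1, an estrogen receptor, was higher in D2 in NN-MGC and lower in Exc-ENT, and Pgr, the progesterone receptor, was lower in NN-OPC. Genes of steroid metabolism and export gave 3 lower of 43 (6.98%, background 9.25%), of which Abcb1b, an efflux transporter, gave 2 and Srd5a1, a 5-alpha-reductase, gave 1. No gene of the corticotropin-releasing hormone and vasopressin system other than Crhr1 was called in 7 tests of 3 genes by edgeR or by DESeq2, and 1 of the 7 had an unadjusted p under 0.05. The SGK1 substrates gave 5 lower of 29 (17.2%, background 9.25%), with Nedd4l, a ubiquitin ligase, in 4 types and Ndrg1 in dentate neurons.

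Clock genes and genes induced by neuronal activity or handling bear on the time and manner of tissue collection, which the labels used here do not give by library. The clock list gave 17 lower (11.1%) and 1 higher of 153 tests, beside 9.25% and 12.9% over all genes, and in non-neuronal types 4 lower of 42 (9.52%, background 8.08%). Per2 and Nr1d2 were each lower in 6 cell types, Arntl in 4, and Dbp was higher in Exc-Gpc6. Summed clock genes had 382 and 455 CPM in B6 oligodendrocytes and 383 and 405 CPM in those of D2, so that the strains overlapped. In astrocytes the sums were 661 and 782 CPM in B6 and 642 and 690 CPM in D2. A sum can hide opposite changes of its genes, so this overlap does not show the time of collection. Per1, also a clock gene, was counted on the list of glucocorticoid-induced genes and not here. The activity list gave 6 higher (9.68%) and 4 lower (6.45%) of 62 tests, beside the same 12.9% and 9.25%, with Junb higher in 5 neuronal types and Egr1 in Exc-Gpc6, while Nr4a1 was lower in NN-Astro, NN-ODC and Exc-CA1-Fras1 and Arc in NN-Astro. Its sum was 30.1 and 30.4 CPM in B6 oligodendrocytes and 30.0 and 25.0 CPM in D2 ones. Their part in the differences of the 8 genes was not tested.

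Chromatin accessibility gave a separate readout at the same genes from other nuclei. The gene bodies with 10000 bp on either side held 231 peaks, of which 19 lay within 1000 bp of an annotated start. Peaks were assigned by position alone, and other genes nearby were not looked up. With all cell types summed 18 peaks differed between strains, 12 lower and 6 higher in D2, against 11.0% of all peaks, and 10 of the 18 were at Zbtb16. In dentate neurons 11 differed, against 5.97%. In the 4 non-neuronal types summed, a comparison added after seeing the data, 0 of 110 tested peaks passed in edgeR (0.177% of all peaks did) and 13 had an unadjusted p under 0.05. DESeq2 called 9 peaks in the sum over all types. The non-neuronal peaks held few counts, which limits what could be called. The mix of these types also moved with the strain, since NN-Astro gave 22.5% and 31.8% of the non-neuronal counts in B6 and 36.2% and 40.4% in D2, NN-ODC 20.9% and 26.8% and then 17.3% and 17.7%, and NN-MGC 38.8% and 22.7% and then 25.5% and 19.2%. D2 reads were aligned to a genome in which D2 bases replaced those of the reference at known single-base variants, and the part of alignment in the differences was not tested.

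A peak just before an annotated start of Zbtb16 (chr9:48837001-48837395) was lower in D2. Summed over cell types it had 4.95 and 4.63 CPM in B6 and 2.62 and 2.53 CPM in D2 (log2 -0.89, SE 0.11, adjusted p = 8.77e-10). In dentate neurons the difference was -1.0 (SE 0.19, adjusted p = 9.69e-06), where the RNA did not differ beyond its spread. In non-neuronal types the libraries had 12.6 and 15.8 CPM in B6 and 3.78 and 2.40 CPM in D2, from 18, 21, 6 and 4 counts. The strains did not overlap, and the difference of -2.17 (SE 0.50, adjusted p = 0.0514) missed the threshold. Within each of the 4 types both B6 libraries were also above both D2 libraries, in astrocytes at 17.1 and 20.6 CPM against 7.69 and 4.01 CPM. The main peak over the Zbtb16 start (chr9:48834669-48836733) differed by -0.02 (SE 0.05). The intronic peak with the element shown above (chr9:48723171-48724142) was lower with all types summed (-0.18, SE 0.06, adjusted p = 0.0385), a call lost when any of 3 libraries was left out, and in non-neuronal types its difference was -1.08 (SE 0.39, adjusted p = 0.6).

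Other Zbtb16 peaks were higher in D2, the opposite of the RNA differences called. Of the 10 called with all types summed 7 were lower and 3 higher in D2, and of the 4 called in dentate neurons 2 were lower and 2 higher. The intronic peak chr9:48695557-48696523 had 4.28 and 4.01 CPM in B6 and 6.78 and 6.004 CPM in D2 (0.62, SE 0.10, adjusted p = 7.92e-07). It was also called in dentate neurons (0.44, SE 0.14, adjusted p = 0.0371), where the call was lost without either B6 library and without D2 library 2. In dentate neurons the intronic peak chr9:48795370-48796150 had 5.31 and 5.44 CPM in B6 and 9.78 and 8.86 CPM in D2 (0.78, SE 0.13, adjusted p = 6.34e-07). Both D2 libraries were above both B6 libraries in each. The other 2 peaks higher in D2 with all types summed (0.46, SE 0.12, and 0.36, SE 0.11) were lost with DESeq2 and without D2 library 3, and the latter also without B6 library 2 and without D2 library 2.

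**Figure D5:**
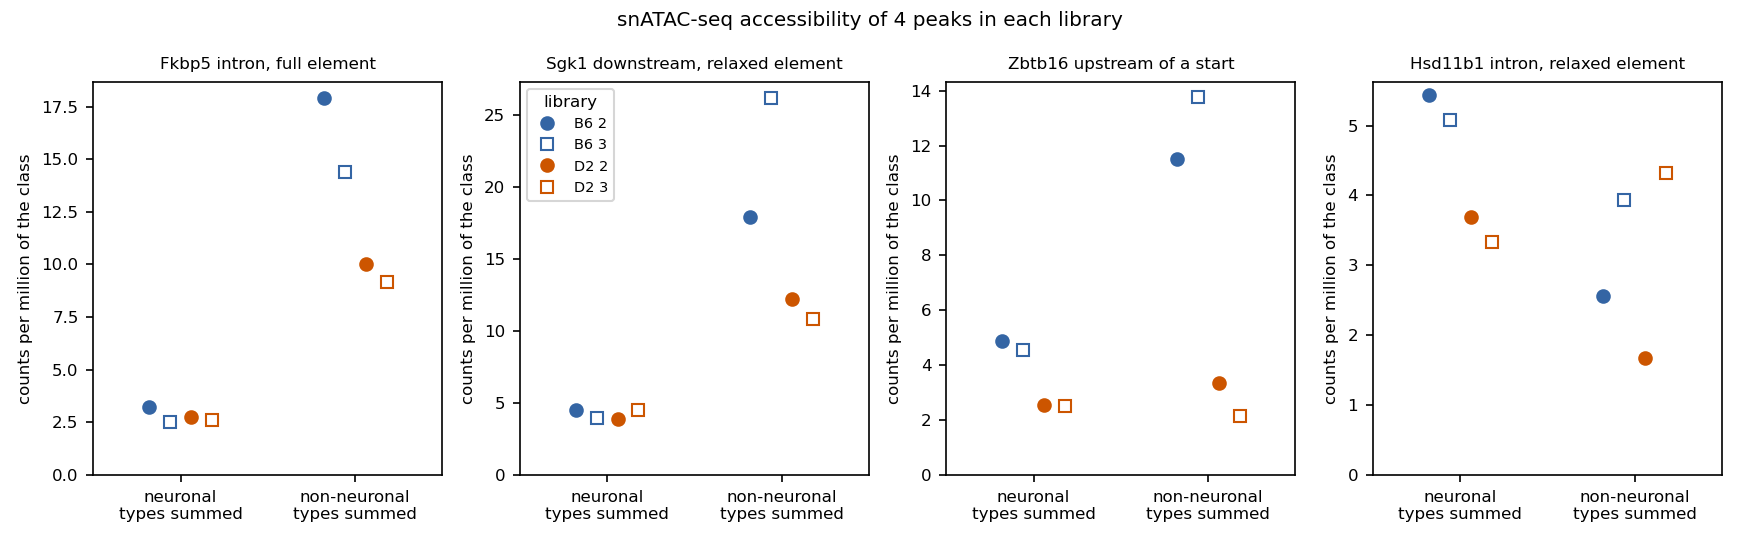
Accessibility of 4 peaks in CPM of the class, with 1 point per snATAC-seq library, for neuronal and non-neuronal types summed (class totals, without the scaling used in the tests). The Fkbp5 and Sgk1 element peaks were higher in non-neuronal types in each library, and the B6 points were the higher ones there.

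The Fkbp5 peak with the full element (chr17:28420181-28421216) was more accessible in non-neuronal than in neuronal types in every library. In non-neuronal types it had 19.7 and 16.5 CPM in B6 and 11.3 and 10.2 CPM in D2, and its strain difference of -0.75 (SE 0.35, adjusted p = 0.795) did not pass although the strains did not overlap. With all types summed the difference was -0.11 (SE 0.12). By cell type the mean was 22.3 CPM in NN-MGC, 12.9 CPM in NN-ODC, 8.84 CPM in NN-Astro and 5.40 CPM in NN-OPC, against 1.21 to 5.57 CPM in neuronal types. Within NN-ODC the B6 libraries, at 21.4 and 14.7 CPM, were above the D2 libraries, at 6.43 and 9.15 CPM, from 18 counts in all, whereas the strains overlapped in microglia (26.4, 20.2, 28.4 and 14.05 CPM) and in astrocytes (8.55, 14.4, 3.07 and 9.36 CPM). The 3 peaks within 1000 bp of an Fkbp5 start did not pass in edgeR with all types summed, with differences of 0.00, 0.09 and -0.05 (adjusted p = 0.989, 0.781 and 0.702). The 1 Fkbp5 peak called with all types summed was intronic (chr17:28491408-28491680) and higher in D2, with 0.842 and 0.914 CPM in B6 and 1.499 and 1.11 CPM in D2 (0.56, SE 0.17, adjusted p = 0.024), and its call was lost with DESeq2, without B6 library 2 (0.50) and without D2 library 2 (0.34). An upstream peak of Fkbp5 (chr17:28522337-28524188) was higher in D2 in dentate neurons (0.20, SE 0.06, adjusted p = 0.036), opposite to the RNA, and that call was lost without B6 library 2, B6 library 3 or D2 library 2 (0.21, 0.20 and 0.098), while it was 0.32 without D2 library 3.

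The Sgk1 peak downstream of the gene (chr10:22000159-22001069) stood out in oligodendrocytes, where its mean was 54.9 CPM. The other types held 1.56 CPM (NN-Astro) to 10.5 CPM (NN-OPC). In non-neuronal types it had 19.7 and 30.0 CPM in B6 and 13.8 and 12 CPM in D2 (log2 -0.93, SE 0.32, adjusted p = 0.538). B6 was above D2 in these libraries, and the difference did not pass. The share of NN-ODC in the sums, given above, was also higher in B6. Within NN-ODC the libraries had 67.3 and 73.4 CPM in B6 and 48.2 and 30.5 CPM in D2, from 77 counts in all, without overlap and not tested. In dentate neurons a peak at an internal start of Sgk1 (chr10:21992596-21993372) was higher in D2 (0.34, SE 0.10, adjusted p = 0.0117), the direction of its RNA there, and the call was lost when either of 2 libraries was left out.

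At Hsd11b1 3 peaks were called with all types summed, each lower in D2. The peak upstream of the gene (chr1:193272277-193273720) had 7.96 and 8.12 CPM in B6 and 6.01 and 4.62 CPM in D2 (-0.60, SE 0.09, adjusted p = 4.98e-07), and differed by -1.71 (SE 0.19, adjusted p = 6.54e-15) in dentate neurons. Its centre lay at -8923 bp from the start of Hsd11b1. The intronic peak whose element is shown above (chr1:193226796-193227757) had 5.35 and 4.99 CPM in B6 and 3.73 and 3.36 CPM in D2 (-0.55, SE 0.10, adjusted p = 4.68e-05). Both strains stayed apart in each. The RNA of Hsd11b1 in dentate neurons was at 6.52 and 7.43 CPM in B6 and 4.25 and 6.11 CPM in D2, lower in D2 without passing (-0.44, SE 0.22, adjusted p = 0.143). Of 22 peaks at Nr3c1 and 3 at Tsc22d3, none was called with all types summed in edgeR or DESeq2, and 1 of the former and 0 of the latter had an unadjusted p under 0.05 in edgeR. At Nr3c2 the 3 peaks called with all types summed were intronic. Of these, 2 were higher in D2 (2.03, SE 0.28, and 0.72, SE 0.16), opposite to its called RNA differences, and 1 was lower (-0.59, SE 0.20). The first had 0.153 and 0.193 CPM in B6 and 0.719 and 0.707 CPM in D2. In dentate neurons 1 intronic Nr3c2 peak was called, also higher in D2 (0.81, SE 0.18). The peak over the main Nr3c2 start (chr8:76898635-76902528) had 64.9 and 65.1 CPM in B6 and 66.4 and 68.1 CPM in D2 (0.05, SE 0.04).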

How the data were processed

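Nuclei of the ventral hippocampus were profiled by snRNA-seq and snATAC-seq in 2 libraries a strain each. The counts deposited by the authors are whole numbers per gene or per peak, summed over the nuclei of a library and cell type. The paper gives its RNA counts as unique molecular identifiers (UMIs) and not as reads. Per the submitters' processing notes and the methods, reads went through Cell Ranger 6.0.2 and Cell Ranger ATAC 2.0.0, introns were kept, cell types came from Seurat 4.0.5, doublets were removed with DoubletFinder, and peaks were called by MACS in each sample and merged. B6 reads were aligned to mm10 and D2 reads to mm10 with D2 single-base variants put in. The cutoffs for keeping snATAC-seq nuclei differed between libraries.

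From these counts, edgeR 4.0.16 (R 4.3.3, TMM scaling, quasi-likelihood test) compared strains in each cell type over all genes or peaks, with Benjamini-Hochberg adjustment and a threshold of 0.05. Classes and the interaction of strain and cell type were fitted over the 68 RNA columns with the library as a block. Peaks with under 10 counts were left out. Similarity was Pearson's r of log2(CPM + 1) over 17 cell types among genes reaching 10 CPM, and the 3 most similar genes are named. In each of 9 related lists, up to 4 genes called in most cell types are named, and 1 gene of these lists is not reported here. The members and lists were chosen with earlier results of these data known. Alternatives included DESeq2 1.42.0, other filters, the replicate number as a block and leaving out each library. The fits were run on simulated counts drawn independently for each column. Such counts cannot show how the fits handle cell types that share a library.

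An exact permutation test of 2 libraries against 2 cannot go below p = 0.33, so none was used. Gene by gene, same-numbered libraries did not deviate together (correlations of -0.082 to 0.006), so the main strain fits did not pair them. Depth did move with the number in most types. In Exc-DG, libraries 2 and 3 had 7023 and 8497 counts per nucleus in B6 and 7305 and 7570 in D2. In NN-VLMC of D2 the order was reversed (3619 and 3352). A batch shared by number was not tested.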

Additional observations from a re-analysis of the deposited data

Results flagged for a closer look

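The strain difference differed between cell types for 6 of the 8 genes, by an interaction term of strain and cell type fitted with edgeR over all genes with Benjamini-Hochberg adjustment. The adjusted p was 0.000702 for Nr3c1, 6.15e-06 for Nr3c2, 7.36e-14 for Fkbp5, 3.39e-19 for Sgk1, 0.0236 for Tsc22d3 and 2.84e-19 for Zbtb16. The interaction did not pass for Hsd11b1 (adjusted p = 0.462) or Crhr1 (adjusted p = 0.314). This fit took the columns of a library as independent apart from the library block, so its p-values can be too small. Nr3c1 was called higher in D2 in astrocytes, Sgk1 higher in dentate neurons and lower in oligodendrocytes, and Fkbp5, Tsc22d3 and Zbtb16 lower in D2 wherever they were called.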

How the results depend on the processing

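By cell type 40 strain differences were called. DESeq2 called 22 (21 of the 40), the replicate block 40 (38 of the 40) and the fits without 1 library 27 to 43 (26 to 34 of the 40). In the sum over cell types 4 genes were called, 4 to 4 when 1 library was left out, 4 with the replicate block and 5 with DESeq2. Class contrasts gave 28 calls, 24 to 28 without 1 library and 27 with no replicate block, and the interaction 6, with 5 to 6 and 5. The Fkbp5 contrast of non-neuronal and neuronal types reversed to -0.022 when types were summed by class first, since larger types then weigh more. As counts per nucleus 4 of 8 genes kept their highest cell type, and 6 to 8 did without 1 library. Of the 24 most similar genes 7 recurred by rank correlation, 4 in B6 alone and 7 in D2 alone.

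With all types summed 18 peaks were called. DESeq2 called 9 (9 of the 18), the replicate block 18 (17 of the 18) and the fits without 1 library 11 to 20 (11 to 16 of the 18), the fewest without B6 library 2. The non-neuronal types summed, an alternative chosen after seeing the data, gave 0. In dentate neurons 11 became 6 to 9 (5 to 8 of the 11), the fewest again without B6 library 2. By DESeq2 the chaperones gave 14 lower, the coregulators 13, the other glucocorticoid-induced genes 11 and the clock genes 6. With 2 libraries a group, and few counts in the small types, small differences could be missed. The replicate block ended the 2 Zbtb16 calls named in the report and that of 1 Nr3c2 peak (-0.58). The causes of these changes were otherwise not tested.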
